A study of Mus musculus with 14 samples.

Results

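Integrins are cell surface receptors made of an alpha and a beta subunit, and 10 mouse genes for such subunits are described here in macrophages of the injured brain and in blood monocytes: Itga4, Itga5, Itga6, Itgam, Itgav, Itgax, Itgb1, Itgb2, Itgb5 and Itgb7. They are 10 of the 17178 gene symbols on the array and were chosen by name. All array probes whose transcript identifier maps to 1 of these symbols were taken, which gave 15 of 41174 probes. Of the 10 genes, 9 had a probe that could be tested, and Itgb2 was the exception.

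The cells came from male YARG mice, a strain in which a fluorescent reporter marks cells that express arginase-1 (Arg1), at 12 to 16 weeks of age. All groups share the reporter strain. Traumatic brain injury (TBI) was inflicted with a piston on the exposed cortex, and cells were taken 1 day later. Arg1+ brain macrophages (n = 4) and Arg1- brain macrophages (n = 4) were sorted from injured brains by the reporter, post-TBI blood monocytes (n = 3) came from injured mice, and normal blood monocytes (n = 3) came from untreated mice. No sham-operated group was analysed here, so surgery and injury cannot be told apart in the comparison of the blood groups. Antibodies to CD45, CD11b, Ly6G and F4/80 were used for sorting. CD11b is the protein of Itgam, 1 of the genes described. The labels do not state that replicates are separate animals, so the tests measure the spread between samples, which may in part be technical.

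An integrin is named by its pair of subunits. The beta-2 chain, encoded by Itgb2, pairs with CD11b (Itgam) or CD11c (Itgax) on myeloid cells, and these pairs bind intercellular adhesion molecules, fibrinogen and complement. The alpha-4 chain (Itga4) pairs with beta-1 (Itgb1) or beta-7 (Itgb7) and lets circulating leukocytes hold on to activated endothelium through VCAM-1 or MAdCAM-1. The alpha-5 chain (Itga5) pairs with beta-1 as the classical fibronectin receptor, alpha-v (Itgav) pairs with beta-5 (Itgb5) and other chains to bind vitronectin and similar RGD ligands, and alpha-6 (Itga6) pairs with beta-1 or beta-4 to bind laminin.

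RefSeq promoter windows (GRCm38.p6, 250 bases before to 50 bases after the gene's start) were found for 8 of the 10 genes: Itga4, Itga5, Itgam, Itgav, Itgax, Itgb1, Itgb5 and Itgb7. Printed here are the windows of the genes that moved together between brain and blood, Itga4 (chr2:79255176-79255475, plus strand) and Itgb7 (chr15:102231886-102232185, minus strand), which were lower in both brain groups, and Itga5 (chr15:103366742-103367041, minus strand) and Itgb5 (chr16:33829415-33829714, plus strand), which were higher there. Each is written 5′ to 3′ on the strand of its gene. Capitals mark GAGGAA, a core of sites for the myeloid factor PU.1, GGGCGG, the GC box bound by SP1, and TGANTCA, the AP-1 site, on either strand.
Itga4: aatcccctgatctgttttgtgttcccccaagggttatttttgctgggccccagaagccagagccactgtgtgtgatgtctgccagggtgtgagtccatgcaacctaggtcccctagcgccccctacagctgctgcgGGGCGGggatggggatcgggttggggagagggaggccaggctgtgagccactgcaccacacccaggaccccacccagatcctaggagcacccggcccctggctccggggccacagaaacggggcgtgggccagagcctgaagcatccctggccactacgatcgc
Itgb7: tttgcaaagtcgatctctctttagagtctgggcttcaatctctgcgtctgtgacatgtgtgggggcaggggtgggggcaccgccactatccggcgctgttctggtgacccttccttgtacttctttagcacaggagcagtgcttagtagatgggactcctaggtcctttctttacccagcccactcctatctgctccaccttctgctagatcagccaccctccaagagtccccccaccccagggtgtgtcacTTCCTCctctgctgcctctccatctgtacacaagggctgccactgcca
Itga5: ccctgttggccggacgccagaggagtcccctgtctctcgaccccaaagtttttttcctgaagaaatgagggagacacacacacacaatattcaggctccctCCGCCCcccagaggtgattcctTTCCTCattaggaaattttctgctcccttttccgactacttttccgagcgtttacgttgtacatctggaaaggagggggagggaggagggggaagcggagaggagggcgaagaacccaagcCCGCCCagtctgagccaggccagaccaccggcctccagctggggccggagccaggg
Itgb5: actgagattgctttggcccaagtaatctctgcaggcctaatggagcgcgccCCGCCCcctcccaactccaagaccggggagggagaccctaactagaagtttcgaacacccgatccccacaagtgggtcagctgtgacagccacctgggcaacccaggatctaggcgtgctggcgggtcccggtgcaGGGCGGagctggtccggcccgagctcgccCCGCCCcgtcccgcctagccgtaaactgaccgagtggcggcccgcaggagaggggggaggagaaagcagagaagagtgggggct

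The PU.1 letters were in the windows of 5 of the 8 genes (Itga5, Itgam, Itgav, Itgb1 and Itgb7), against 28.3% of all 32851 windows in the table. The SP1 letters were in 6 of 8 (Itga4, Itga5, Itgam, Itgav, Itgb1 and Itgb5), against 35.7% of all windows. The GC content of these 6 windows was 50.3% (Itgam) to 67.3% (Itgav and Itgb1), against a median of 52.7% over all windows. Its part in the SP1 count was not tested. Of the 8, the AP-1 letters were in that of Itgax alone, against 7.8% of all windows. No marked letters of 1 motif overlapped those of another in the 4 printed windows. The pair that was lower in brain cells did not share any of the 3 motifs, since Itga4 held 1 GC box and Itgb7 held 1 PU.1 match. The pair that was higher shared the GC box, with 2 in Itga5 and 3 in Itgb5. A match describes the letters and is no evidence of binding.

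Levels are log2 values of the processed spot signal divided by the 75th percentile of its array, with a floor of 0.05, so 0 is the level of the 75th percentile and -4.32 is the floor. They compare a probe between arrays, not a probe with another probe. The 75th percentile of the signal ranged over 119.4 to 418.5 between arrays. The share of probes well above background was 50.4% at the lowest and 68.68% at the highest. The number of arrays limits the precision. Differences were tested with limma over 21972 genes and unnamed probes in a single model of the 14 arrays, and a gene is said to have risen or fallen where the Benjamini-Hochberg adjusted p was under 0.05. Errors of levels are SDs and errors of differences are standard errors. In sorted bulk samples, fewer cells of a type and less RNA per cell cannot be told apart.

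Arg1 itself followed the sort labels. Its level was 6.82, 6.20 and 6.21 on 3 Arg1+ arrays, with the spot of the other one set aside by the scanner software, against 4.20, 3.94, 2.40 and 2.12 on the Arg1- arrays (difference 3.25 ± 0.43, adjusted p = 0.000527). Both blood groups lay between -3.90 and -3.13. The summed scaled level of 8 tested macrophage markers was 348 to 587 in Arg1+ cells and 290 to 444 in Arg1- cells. It was 254 to 342 in post-TBI monocytes and 162 to 283 in normal monocytes. In this and all other marker sums a spot that was set aside adds nothing, so arrays can differ in the markers summed. Cd63, for example, at means of 7.82 and 7.01, was usable on 2 of 4 Arg1+ and 3 of 4 Arg1- arrays. The sum of 8 monocyte markers was 21.8 to 29.9, 30.1 to 58.2, 185 to 219 and 209 to 247 in the same order of groups. Of these, Plac8 and Cx3cr1 were each usable on 3 of 4 Arg1- arrays. Markers of other cells also differed: the sum of 10 dendritic cell markers was 9.57 to 84 in Arg1+ cells and 67.6 to 368 in Arg1- cells, and that of 13 neutrophil markers was 10.9 to 22 in Arg1+ cells and 35.4 to 146 in Arg1- cells. Of the natural killer cell markers 2 of 8 fell in Arg1+ relative to Arg1- cells, as did 2 of 5 for eosinophils and mast cells. Over all features 5.04% were called in that comparison. For T cells and endothelium limma called 0 of 7 and 0 of 6 there (3 and 2 at an unadjusted p under 0.05), and 1 of 7 B cell and 1 of 8 astrocyte, oligodendrocyte and neuron markers rose.

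Between the brain populations, which differ in the Arg1 reporter, Itga4 and Itgax fell in Arg1+ cells and no tested member rose. These are 2 of 9 tested members called, where 5.04% of all features were called (2.14% higher and 2.90% lower). The arrays did not overlap for 4 of the 9 (Itga4, Itga6, Itgax and Itgb7), against 14.9% of all features. The median difference of the members was 0.11, against 0.00 for all features. The remaining 7 members had differences of -0.49 to 0.61 that did not pass.

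Between brain and blood of injured mice, the members split in both directions. In Arg1+ cells 3 rose (Itga5, Itgb5 and Itga6) and 3 fell (Itga4, Itgb7 and Itgax) relative to post-TBI monocytes, 6 of 9 where 39.9% of all features were called (19.9% higher and 20.0% lower). In Arg1- cells 2 rose (Itga5 and Itgb5) and 2 fell (Itga4 and Itgb7), 4 of 9 where 33.4% of all features were called (17.0% higher and 16.4% lower). The arrays did not overlap for the same 6 members in Arg1+ cells and the same 4 in Arg1- cells, against 39.7% and 37.0% of all features. Brain and blood differed at so many features that nothing is read from these counts, and the size and direction of each subunit are described below. Median differences of the members were 0.30 and 0.10 in these comparisons, against -0.03 and -0.02 for all features. Both comparisons use the same post-TBI monocytes. Relative to normal monocytes 4 members rose and 2 fell in Arg1+ cells, where 40.5% of all features were called (19.7% higher and 20.7% lower), and 4 rose and 2 fell in Arg1- cells, where 32.3% were called (16.2% higher and 16.1% lower).

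Between post-TBI and normal monocytes, 0 of 9 members passed limma's test, where 33 of all features did (0.150%, with 0.109% higher and 0.0410% lower). At an unadjusted p under 0.05 there were 2, Itga6 and Itgax, and these were also the 2 whose arrays did not overlap, against 9.26% of all features. The 9 members' median difference was 0.04, against 0.00 for all features.

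**Figure D1:**
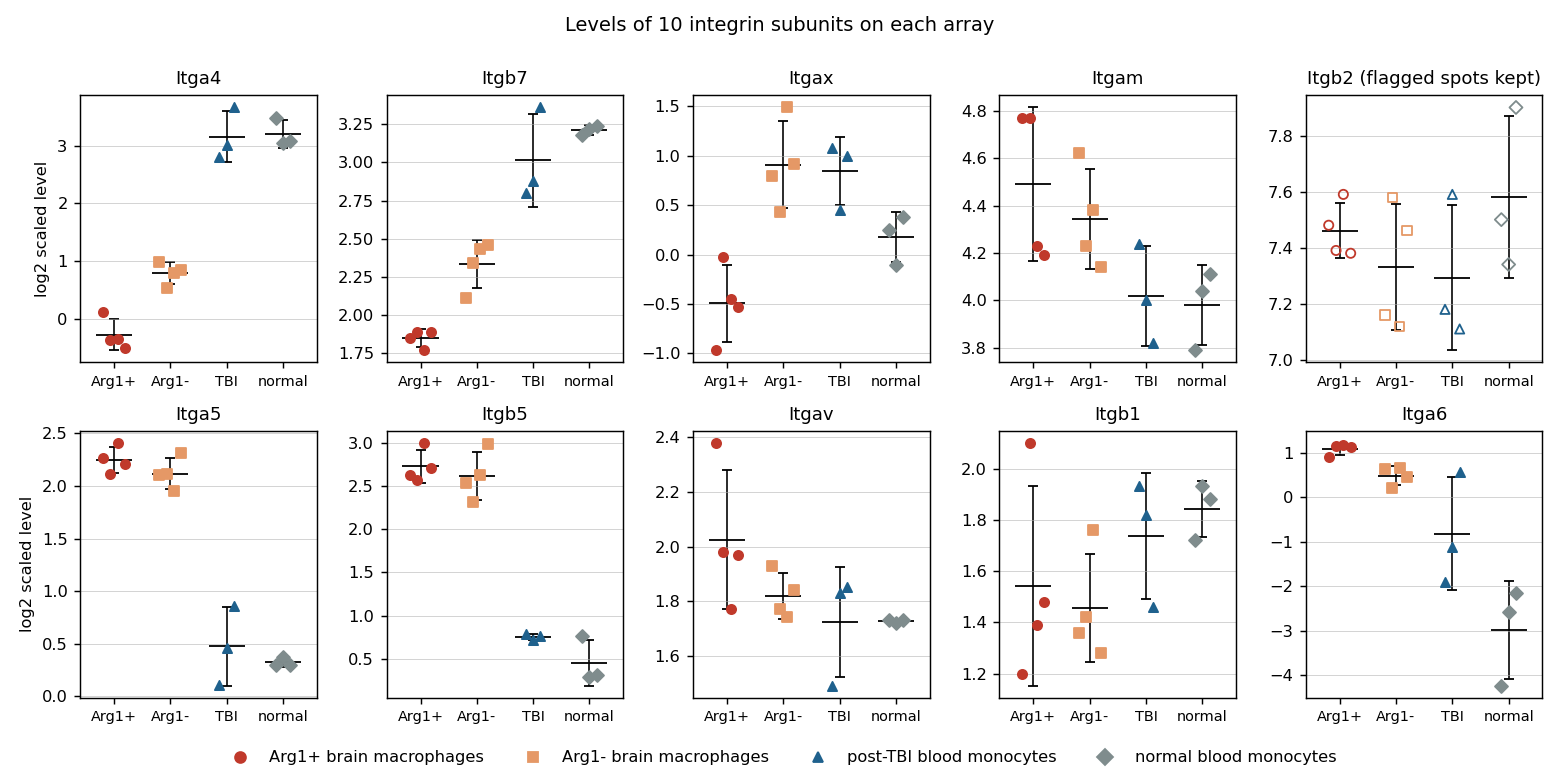
Log2 scaled level (y axes, each gene on its own scale) of the 10 integrin subunits on each array, with the 4 groups along the x axes; each point is an array, horizontal lines are group means and bars are SDs, and open points for Itgb2 include spots that the scanner software had set aside. Itga4 and Itgb7 are lower, and Itga5 and Itgb5 higher, on every brain array than on every blood array.

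**Figure D2:**
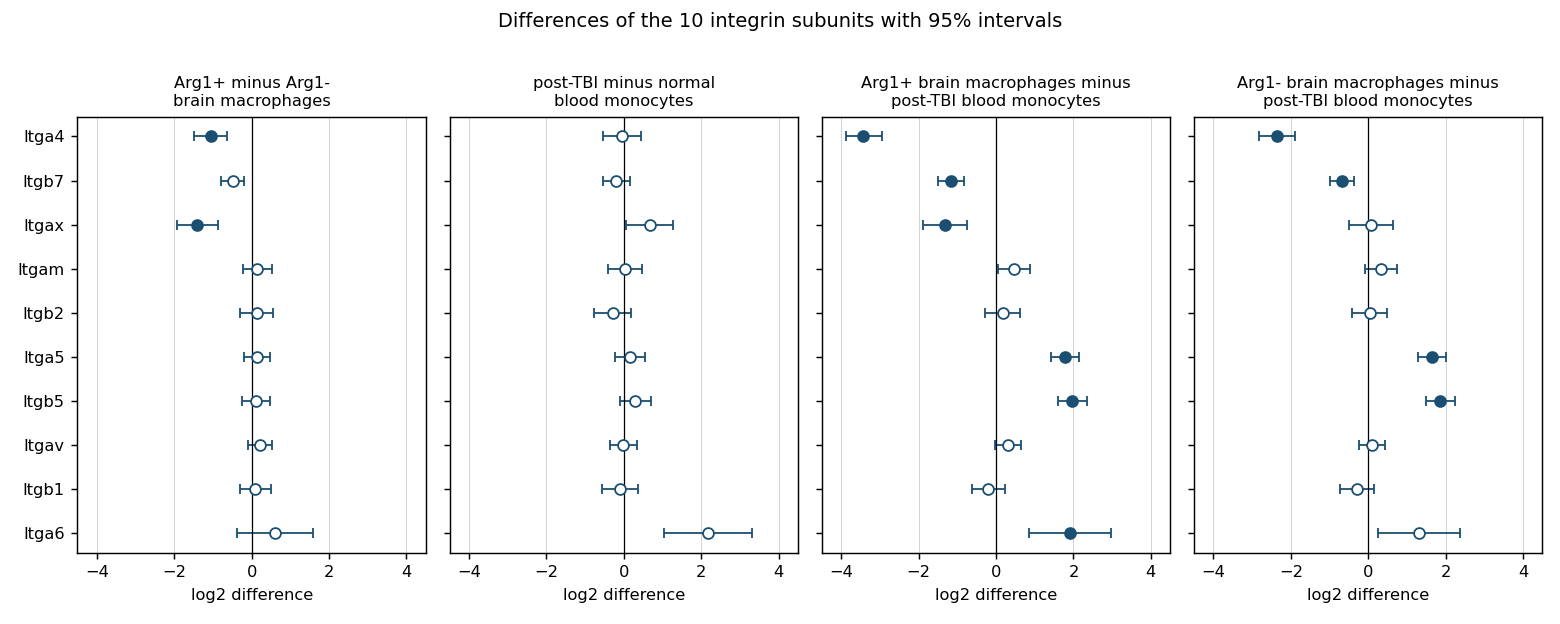
Log2 differences (x axes) of the 10 subunits in 4 comparisons with their 95% intervals from the limma fit; filled points passed an adjusted p of 0.05 and open points did not. Itga4 lies at -1.06, -0.04, -3.43 and -2.36 in the panels read left to right, and Itgb5 at 0.11, 0.30, 1.97 and 1.86.

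The alpha-4 gene Itga4 had the largest difference between brain and post-TBI blood among the 9 tested subunits. Its level was 0.12, -0.36, -0.34 and -0.50 on the Arg1+ arrays, 0.99, 0.53, 0.80 and 0.85 on the Arg1- arrays, 2.80, 3.01 and 3.66 on the post-TBI monocyte arrays and 3.48, 3.04 and 3.08 on the normal monocyte arrays. Arg1+ cells were lowest, Arg1- cells came next without overlap, and both blood groups lay together at the top. The level in Arg1+ cells was 2.09-fold lower than in Arg1- cells (log2 difference -1.06 ± 0.20, adjusted p = 0.00569) and lower still against post-TBI monocytes (-3.43 ± 0.22, adjusted p = 1.07e-08). Arg1- cells were 5.14-fold lower than post-TBI monocytes (-2.36 ± 0.22, adjusted p = 1.07e-06). Post-TBI and normal monocytes differed by -0.04 ± 0.23 (95% interval -0.54 to 0.45).

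All 3 Itga4 probes gave the same directions. Arg1+ cells were lower than Arg1- cells by log2 differences of -1.06, -1.32 and -1.22 on the 3 probes, and lower than post-TBI monocytes by -3.43, -3.93 and -3.93, with each probe past the threshold when all kept probes were tested. The arrays lay on 4 slides, 3 of which hold every group. Itga4 was lower in Arg1+ than in Arg1- cells on 4 of 4 slides, by -1.33 to -0.73, and with the slide as a block the difference was -1.06 ± 0.17 (adjusted p = 0.00336). Against post-TBI monocytes it was lower on 3 of 3 slides, by -4.00 to -2.89 in Arg1+ cells and by -2.67 to -2.16 in Arg1- cells. Monocyte, neutrophil and dendritic cell markers were also lower in Arg1+ than in Arg1- cells, with the sums given above, as 5 of 8, 8 of 13 and 8 of 10 tested markers fell, while 1 neutrophil marker, Mmp8, rose (0.98 ± 0.20, adjusted p = 0.0103). Their part in the Itga4 difference was not tested.

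The beta-7 gene Itgb7, whose product is a partner of alpha-4, ran in the same order. It was at 1.85, 1.89, 1.77 and 1.89 on the Arg1+ arrays, 2.11, 2.34, 2.43 and 2.46 on the Arg1- arrays, 2.80, 2.88 and 3.36 on the post-TBI monocyte arrays and 3.18, 3.22 and 3.24 on the normal monocyte arrays. The Arg1+ arrays were all below the Arg1- arrays, and both brain groups were below the blood groups. Relative to post-TBI monocytes Itgb7 was 2.24-fold lower in Arg1+ cells (-1.17 ± 0.15, adjusted p = 2.05e-05) and 1.60-fold lower in Arg1- cells (-0.68 ± 0.15, adjusted p = 0.00287). The difference between Arg1+ and Arg1- cells, -0.49 ± 0.14, missed the threshold (adjusted p = 0.06), although it was negative on 4 of 4 slides (-0.61 to -0.34). Against post-TBI monocytes Itgb7 was lower on 3 of 3 slides, by -1.59 to -0.92 in Arg1+ cells and by -1.24 to -0.42 in Arg1- cells. The difference between the brain groups passed under 5 of the alternative settings, among them quantile normalization (-0.54, adjusted p = 0.0332) and the authors' deposited table (-0.58, adjusted p = 0.0201), and without post-TBI replicate 4 (adjusted p = 0.0105) or post-TBI replicate 1 (adjusted p = 0.0495), which enter through the shared spread.

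Beta-1 is the other partner of alpha-4, and also pairs with alpha-5 and alpha-6. Itgb1 was at 1.20, 2.10, 1.39 and 1.48 on the Arg1+ arrays, 1.36, 1.42, 1.76 and 1.28 on the Arg1- arrays, 1.93, 1.82 and 1.46 on the post-TBI monocyte arrays and 1.72, 1.93 and 1.88 on the normal monocyte arrays, and the groups overlapped. Arg1+ and Arg1- cells differed by 0.09 ± 0.19 (95% interval -0.31 to 0.49). Relative to post-TBI monocytes the differences were -0.20 ± 0.20 in Arg1+ cells and -0.28 ± 0.20 in Arg1- cells, neither past the threshold. The second Itgb1 probe did pass, at -0.58 ± 0.18 (adjusted p = 0.02) and -0.63 ± 0.18 (adjusted p = 0.0154), and so did the first with normexp background correction (-0.58 in both, adjusted p = 0.0382 and 0.0471) and in the authors' deposited table (-0.60 and -0.62, adjusted p = 0.0169 and 0.0172). The slide block moved the call in Arg1- cells too (-0.43, adjusted p = 0.0455). The sign for brain against blood was the same in these fits, and the call depended on probe and processing.

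Among the subunits for matrix ligands, Itga5 was higher in brain cells. Its level was 2.27, 2.11, 2.41 and 2.21 on the Arg1+ arrays, 2.10, 2.11, 1.95 and 2.31 on the Arg1- arrays, 0.11, 0.46 and 0.86 on the post-TBI monocyte arrays and 0.30, 0.37 and 0.30 on the normal monocyte arrays. The brain groups overlapped each other and lay wholly above the blood groups, which also overlapped. It rose 3.42-fold in Arg1+ cells (1.77 ± 0.17, adjusted p = 1.01e-06) and 3.13-fold in Arg1- cells (1.64 ± 0.17, adjusted p = 3.77e-06) relative to post-TBI monocytes. The Arg1+ and Arg1- cells differed by 0.13 ± 0.16, with a 95% interval of -0.21 to 0.47.

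Itgb5, whose product is a vitronectin-binding partner of alpha-v, was also higher. It was at 2.63, 2.57, 3.00 and 2.71 on the Arg1+ arrays, 2.53, 2.32, 2.63 and 2.99 on the Arg1- arrays, 0.79, 0.72 and 0.76 on the post-TBI monocyte arrays and 0.76, 0.29 and 0.31 on the normal monocyte arrays. Relative to post-TBI monocytes it rose 3.93-fold in Arg1+ cells (1.97 ± 0.18, adjusted p = 5.66e-07) and 3.63-fold in Arg1- cells (1.86 ± 0.18, adjusted p = 1.82e-06). The interval between the brain groups was -0.24 to 0.47 around 0.11. Within slides, Itga5 was higher in Arg1+ cells than in post-TBI monocytes by 1.54 to 2.11 and Itgb5 by 1.91 to 2.24, on 3 of 3 slides each. Microglia markers were also higher in the brain groups, with 8 and 7 of 9 markers up in Arg1+ and Arg1- cells and sums of 52.8 to 84.5 and 42.3 to 57.9, against 11.5 to 13.1 in post-TBI monocytes. Over all features 39.9% and 33.4% were called in these comparisons. The part of microglia in the Itga5 and Itgb5 differences was not tested.

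The alpha-v gene Itgav was at 2.38, 1.98, 1.77 and 1.97 on the Arg1+ arrays, 1.93, 1.77, 1.74 and 1.84 on the Arg1- arrays, 1.49, 1.83 and 1.85 on the post-TBI monocyte arrays and 1.73, 1.72 and 1.73 on the normal monocyte arrays. None of its comparisons passed with the brighter probe, and Arg1+ cells differed from post-TBI monocytes by 0.30 ± 0.16 (95% interval -0.03 to 0.64). Its 2 probes had opposite signs against post-TBI monocytes: the dimmer one gave -0.31 ± 0.16 in Arg1+ cells and -0.50 ± 0.16 in Arg1- cells, and the second of these passed (adjusted p = 0.0229). No direction is therefore given for Itgav between brain and blood.

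**Figure D3:**
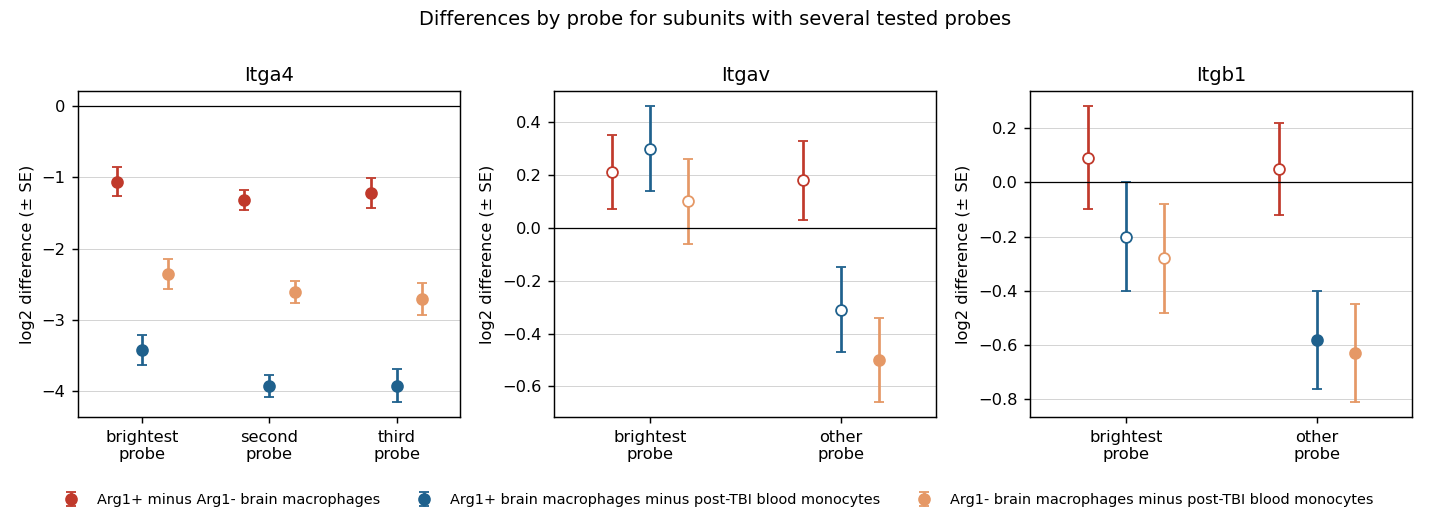
Log2 differences (y axes, ± SE) for each tested probe of Itga4, Itgav and Itgb1 in 3 comparisons, where filled points passed an adjusted p of 0.05 over all kept probes. The 3 Itga4 probes lie together in each comparison, whereas the brighter Itgav probe lies above 0 and the other below 0 against post-TBI monocytes.

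Of the beta-2 family, Itgax (CD11c) separated the brain populations. Its level was -0.97, -0.02, -0.45 and -0.53 on the Arg1+ arrays, 0.80, 0.43, 1.49 and 0.92 on the Arg1- arrays, 1.08, 0.45 and 1.00 on the post-TBI monocyte arrays and 0.25, -0.11 and 0.38 on the normal monocyte arrays. All Arg1+ arrays were below all Arg1- arrays, and Arg1- cells overlapped post-TBI monocytes. Itgax in Arg1+ cells was 2.64-fold lower than in Arg1- cells (-1.40 ± 0.25, adjusted p = 0.00367) and 2.52-fold lower than in post-TBI monocytes (-1.33 ± 0.27, adjusted p = 0.000963). Arg1- cells differed from post-TBI monocytes by 0.07 ± 0.27 (95% interval -0.50 to 0.63), and were higher than normal monocytes by 0.74 ± 0.27 (adjusted p = 0.0457). The 3 post-TBI arrays lay above the 3 normal arrays, by a mean of 0.67 ± 0.28, which did not pass (unadjusted p = 0.0325, adjusted p = 0.696).

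Dendritic cell markers moved in the same direction as Itgax between the brain groups. All 10 tested markers of that list other than Xcr1 and Siglech, 8 in number, fell in Arg1+ relative to Arg1- cells. The median difference of all 10 was -2.44. Among the defining ones, Flt3, the receptor for the dendritic cell growth factor, was well above background on 1 of 4 Arg1+ arrays and 4 of 4 Arg1- arrays, Cd209a likewise on 1 and 4, and Kmo on 0 and 4. The sums were 22.3, 84, 80.2 and 9.57 on the Arg1+ arrays beside the Itgax levels above, and 67.6, 368, 260 and 349 on the Arg1- arrays. The marker H2-Ab1, with means of 5.39 and 7.76, had a usable spot on 3 of 4 arrays of each brain group. A spot that was set aside adds nothing to a sum, so the sums of single arrays do not all cover the same markers. The part of these markers in the Itgax difference was not tested. Itgax was lower in Arg1+ cells on 4 of 4 slides, by -1.88 to -0.96, and by -1.40 ± 0.19 with the slide as a block (adjusted p = 0.000846). Against post-TBI monocytes it was lower in Arg1+ cells on 3 of 3 slides, by -1.60 to -1.42.

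**Figure D4:**
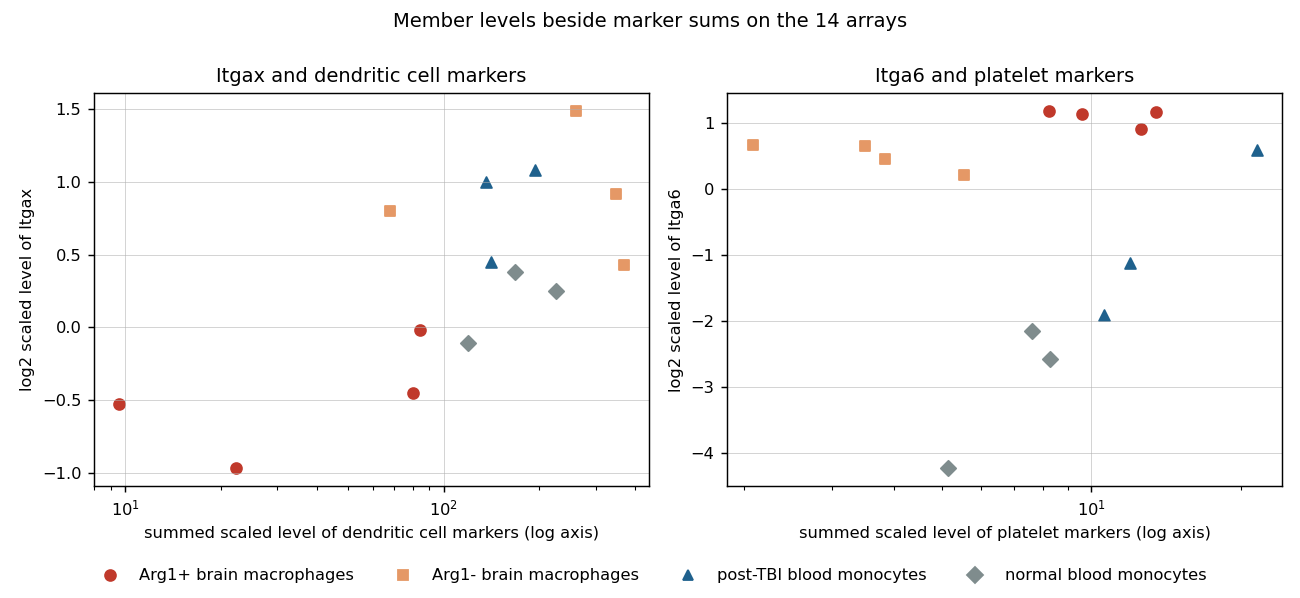
Left, log2 level of Itgax (y axis) against the summed level of 10 dendritic cell markers (log x axis), and right, log2 level of Itga6 against that of 7 platelet markers; each point is 1 of the 14 arrays. The 4 Arg1+ arrays sit at the lower left of the Itgax panel with sums of 9.57 to 84. Among the monocyte arrays of the Itga6 panel the 1 with a sum of 21.6 has the highest Itga6 level, 0.58. A marker spot that was set aside adds nothing to a sum.

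Itgam, whose product was a sorting antigen, was at 4.77, 4.77, 4.23 and 4.19 on the Arg1+ arrays, 4.62, 4.23, 4.38 and 4.14 on the Arg1- arrays, 4.24, 4.00 and 3.82 on the post-TBI monocyte arrays and 3.79, 4.04 and 4.11 on the normal monocyte arrays. Arg1+ and Arg1- cells differed by 0.15 ± 0.18 (95% interval -0.23 to 0.53). Arg1+ cells were above post-TBI monocytes by 0.47 ± 0.19, which missed the threshold (adjusted p = 0.0655), and it passed without Arg1+ replicate 3, Arg1+ replicate 4 or post-TBI replicate 1 (adjusted p = 0.0445, 0.04 and 0.0435). Relative to normal monocytes Itgam rose by 0.51 ± 0.19 in Arg1+ cells (adjusted p = 0.0468), close to the threshold. A second Itgam probe was set aside as non-uniform on 9 of 14 arrays and was not tested in the main fit. With flagged spots kept it stood for Itgam as the brighter probe. Its level was then 4.52 to 4.96 on the Arg1+ arrays and 4.04 to 4.38 on the Arg1- arrays, without overlap. Post-TBI monocytes lay at 3.80 to 4.63 and normal monocytes at 3.79 to 4.90. In that fit 2 members were called between the brain groups, the same number as in the main fit.

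Itgb2, the shared beta-2 chain, has a single probe, and the scanner software flagged its spot as non-uniform on 10 of 14 arrays, though it was not saturated on any. Among the 412 brightest probes 25.5% of spots were set aside, against 0.849% of all. With these spots kept, a choice made after the data were seen, its level was 7.48, 7.39, 7.59 and 7.38 on the Arg1+ arrays, 7.16, 7.58, 7.12 and 7.46 on the Arg1- arrays, 7.18, 7.59 and 7.11 on the post-TBI monocyte arrays and 7.50, 7.34 and 7.90 on the normal monocyte arrays. The groups overlapped. The Arg1+ and Arg1- cells differed by 0.13 ± 0.20, post-TBI and normal monocytes by -0.29 ± 0.23, and the brain groups from post-TBI monocytes by 0.17 ± 0.21 and 0.04 ± 0.21, none past the threshold. With flagged spots kept, 5.32%, 0.153%, 40.2% and 33.6% of all features were called in these comparisons. The sign in Arg1+ against post-TBI cells was negative with quantile normalization (-0.45, adjusted p = 0.0434) and in the authors' deposited table (-0.47, adjusted p = 0.0163), so no direction is given.

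Itga6, the laminin-binding subunit, which platelets also carry, had the largest SDs of the 9 tested subunits in both blood groups (1.27 and 1.10). Its level was 0.90, 1.16, 1.18 and 1.14 on the Arg1+ arrays, 0.64, 0.21, 0.66 and 0.45 on the Arg1- arrays, -1.91, -1.12 and 0.58 on the post-TBI monocyte arrays and -4.24, -2.58 and -2.15 on the normal monocyte arrays, where its probe was well above background on 2 of 3. Group means stood in that order, with Arg1+ cells at the top, and neighbouring groups did not overlap except Arg1- cells and post-TBI monocytes. Relative to post-TBI monocytes Itga6 rose 3.77-fold in Arg1+ cells (1.91 ± 0.50, adjusted p = 0.00655), while the 1.31 ± 0.50 of Arg1- cells missed the threshold (adjusted p = 0.0572) and passed without post-TBI replicate 4 (2.00, adjusted p = 0.00282). The difference of Arg1- cells also passed without normal replicate 2 or normal replicate 4, which enter through the shared spread. Within slides the differences were 0.60 to 3.05 in Arg1+ cells and 0.06 to 2.12 in Arg1- cells, higher on 3 of 3. Without post-TBI replicate 1 the differences from Arg1+ and Arg1- cells were the smallest of the leave-one-out fits, 1.37 and 0.76. Relative to normal monocytes it rose in both brain groups, by 4.09 ± 0.50 (adjusted p = 1.07e-05) and 3.48 ± 0.50 (adjusted p = 7.65e-05).

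Post-TBI monocytes had more Itga6 signal than normal monocytes on all 3 slides (0.68 to 3.12), with a mean difference of 2.18 ± 0.53 that did not pass over all features (unadjusted p = 0.00102, adjusted p = 0.200). In each leave-one-out fit but 1 it did not pass. Without post-TBI replicate 1 it passed (2.72, adjusted p = 0.0426). Platelet markers differed the same way: their sums were 10.6, 12 and 21.6 on the post-TBI arrays and 5.14, 8.25 and 7.61 on the normal arrays, and the platelet glycoprotein genes Gp9 and Gp5 had differences of 1.78 ± 0.43 and 2.18 ± 0.63 that did not pass either. The part of platelets in the Itga6 difference was not tested. In the brain groups the platelet sums were 8.23 to 13.5 in Arg1+ cells, which overlaps the post-TBI range, and 2.08 to 5.54 in Arg1- cells. Of the 7 tested platelet markers, 5 (Ppbp, Gp1ba, Gp1bb, Itga2b and Treml1) were well above background on 4 of 4 arrays of each brain group, whereas Gp5 was so on 0 of 4 in both. Gp9 was well above background on 0 of 4 arrays in Arg1+ cells and 1 of 4 in Arg1- cells.

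Across the 14 arrays, as a description of points that share groups and slides, Itga4 and Itgb7 had a Pearson r of 0.97, Itga5 and Itgb5 an r of 0.97, and Itga4 and Itga5 an r of -0.93. The closest patterns were sought among named genes with a usable value on all 14 arrays, which leaves out Itgal. Those closest to Itga4 were Samsn1 (r = 0.989) and Dock5 (r = 0.988), and to Itgb7 Ccnd3 (0.983) and Pmaip1 (0.973). To Itga5 they were Dab2 (0.991) and Rai14 (0.986), and to Itgb5 C1qb (0.990) and Timp1 (0.987). For Itgax they were Stat4 (0.932) and Trerf1 (0.913), and for Itga6 Ppard (0.966) and Ifrd1 (0.965). The members that changed least had lower maxima: Itgam with Snx13 (0.930) and Aldh1l2 (0.901), Itgb1 with Fbxw2 (0.902) and Mrpl1 (0.901), and Itgav with Mgrn1 (0.860) and Aspscr1 (0.846).

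Of 16 other integrin subunits, 11 were tested. In Arg1+ relative to Arg1- cells 1 fell, where 5.04% of all features were called. It was Itgal, which encodes CD11a, the alpha chain of LFA-1 and a further partner of beta-2. Its level was 1.97, 2.22, 1.96 and 2.02 on the Arg1+ arrays, 3.56, 3.41, 3.67 and 3.70 on the Arg1- arrays, 6.10, 6.15 and 6.31 on the post-TBI monocyte arrays, and 6.38 and 6.34 on the 2 usable normal monocyte arrays. The groups stood in the same order as for Itga4, with differences of -1.54 ± 0.13 between the brain groups, -4.14 ± 0.14 for Arg1+ and -2.60 ± 0.14 for Arg1- cells against post-TBI monocytes (adjusted p = 2.23e-05, 4.69e-11 and 1.06e-08). The list's median difference was 0.00 between the brain groups, -0.04 for Arg1+ and -0.38 for Arg1- cells against post-TBI monocytes, and 0.06 between the blood groups, where 0 were called by limma and 2 had an unadjusted p under 0.05.

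In Arg1+ cells 3 other subunits rose and 5 fell relative to post-TBI monocytes, where 39.9% of all features were called. In Arg1- cells 1 rose and 4 fell, where 33.4% were called. The fibrinogen receptor of platelets is made of Itga2b and Itgb3, and both fell in the brain groups. Itgb3 fell by 4.45 ± 0.47 in Arg1+ cells and fell by 3.69 ± 0.47 in Arg1- cells, while Itga2b fell by 3.62 ± 0.45 in Arg1+ cells and fell by 3.34 ± 0.45 in Arg1- cells. The collagen receptor subunit gene Itga2 was not well above background on any brain array and was at least 10.8-fold lower in Arg1+ cells (adjusted p = 9.60e-05) and at least 11.9-fold lower in Arg1- cells (adjusted p = 0.000139) than in post-TBI monocytes. These bounds set the bright group's mean against the lowest signal among probes well above background on each dim array. They leave out the spread between arrays, which is in the log2 difference of -3.64 ± 0.56 of each brain group. Of the platelet markers tested, 5 of 7 fell in Arg1+ and 6 of 7 in Arg1- cells, with sums of 8.23 to 13.5 and 2.08 to 5.54, against 10.6 to 21.6 in post-TBI monocytes, and their part in the Itga2b, Itgb3 and Itga2 differences was not tested. Itga2b is itself on that marker list.

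Itga9, whose product binds tenascin-C and osteopontin, was higher in both brain groups, by 1.28 ± 0.22 in Arg1+ cells (adjusted p = 0.000244) and 1.16 ± 0.22 in Arg1- cells (adjusted p = 0.000776). Against post-TBI monocytes, Arg1+ cells also had higher Itga1 (0.82 ± 0.29, adjusted p = 0.0364) and Itga7 (1.53 ± 0.49, adjusted p = 0.0202), and lower Itga8 (-0.97 ± 0.37, adjusted p = 0.0477). The 3 differences lie near the threshold. Itga7 was not well above background on any post-TBI array, so its size is limited by the floor.

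**Figure D5:**
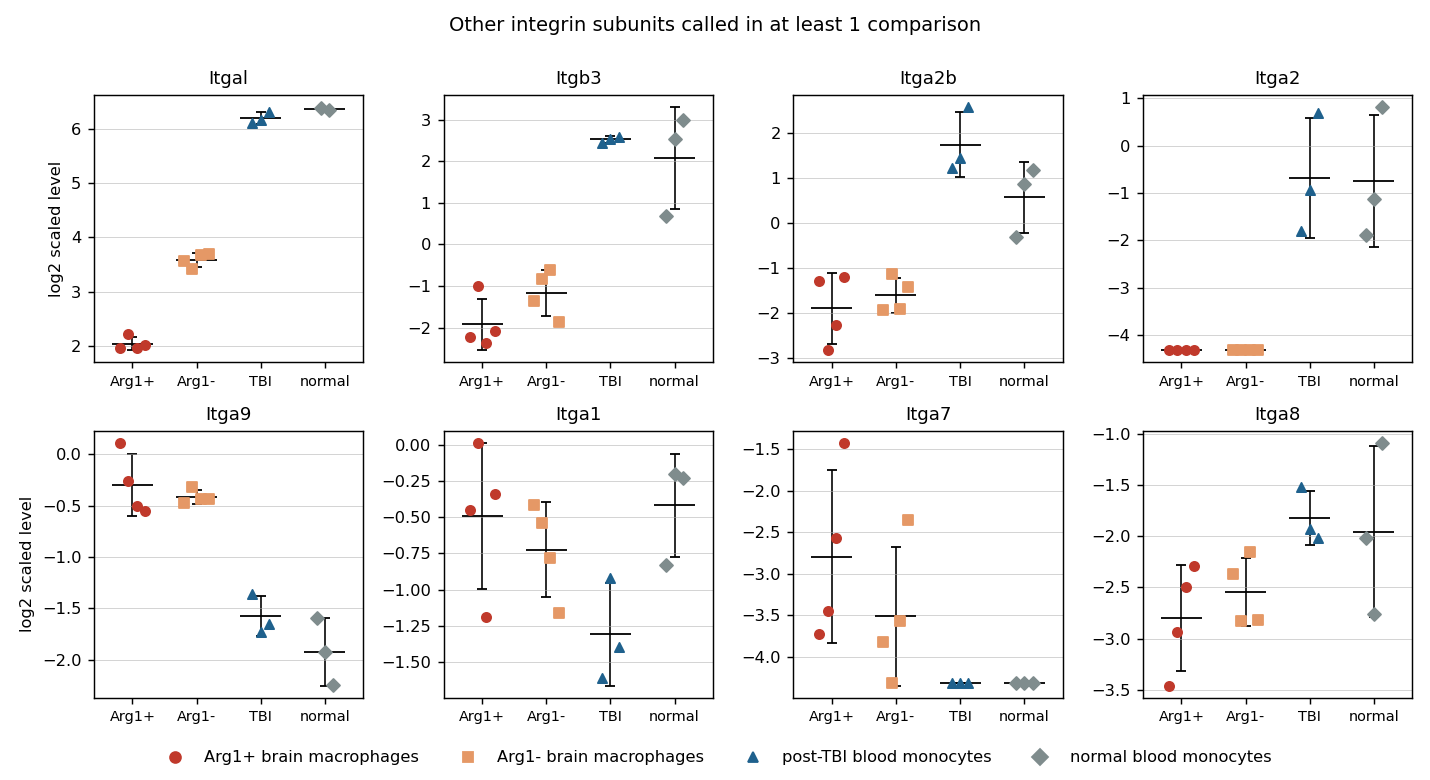
Log2 scaled level (y axes) of the 8 other integrin subunits that passed in at least 1 comparison, by array and group as in the plot of the 10 subunits; lines are means and bars SDs. Itgal steps up over Arg1+, Arg1- and blood arrays without overlap, and Itga2 is at the floor of -4.32 on all 8 brain arrays.

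Of 36 listed genes of integrin ligands, 26 were tested. Against post-TBI monocytes 8 rose and 1 fell in Arg1+ cells, where 39.9% of all features were called, and 8 rose and 2 fell in Arg1- cells, where 33.4% were called. The list's median differences were 0.38 and 0.49, against -0.03 and -0.02 for all features. Spp1, which encodes osteopontin, a ligand of alpha-v and alpha-9 integrins, had the largest difference. It was at 7.65 in Arg1+ and 6.05 in Arg1- cells against -4.10 in post-TBI monocytes. There it was well above background on 1 of 3 arrays, so the size is limited by the floor. Thbs1, which encodes thrombospondin-1, rose by 3.61 ± 0.47 and 2.74 ± 0.47 in Arg1+ and Arg1- cells, and Adam8, which encodes a disintegrin protease, by 4.15 ± 0.55 and 3.49 ± 0.55. Lamb2, a laminin chain gene, rose by 1.84 ± 0.54 in Arg1+ cells and 1.59 ± 0.54 in Arg1- cells. These sizes are limited by its post-TBI level, which was well above background on 1 of 3 arrays. Cdh1 was higher in Arg1- cells by 2.18 ± 0.33. It was not well above background on any post-TBI array, so this size is limited by the floor. Between the brain groups 1 ligand gene rose in Arg1+ cells, Spp1 (1.60 ± 0.19, adjusted p = 0.000142), and 1 fell, Cdh1, the E-cadherin gene (-1.54 ± 0.31, adjusted p = 0.00828). Over all features 5.04% were called there, and the list's median was 0.03. Cdh1 was well above background on 1 of 4 Arg1+ arrays, which limits the size of its difference. Of the ligand genes that fell against post-TBI monocytes, named after their values were seen to complete the counts, Icam2, whose product is a counter-receptor of LFA-1, did so in both groups (-1.45 ± 0.26 and -1.27 ± 0.26) and Vwf, the von Willebrand factor gene, in Arg1- cells (-1.67 ± 0.42). Between the blood groups limma called 0 of 26 ligand genes, and 2 had an unadjusted p under 0.05.

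Of 42 listed genes of integrin activation and of the adhesion complex, 36 were tested, and both directions occurred. Against post-TBI monocytes 12 rose and 15 fell in Arg1+ cells, where 39.9% of all features were called, and 9 rose and 15 fell in Arg1- cells, where 33.4% were called, with medians of -0.07 and -0.29. Rasgrp2, the exchange factor for Rap1 that switches integrins on in leukocytes and platelets, fell by 3.43 ± 0.26 in Arg1+ cells and fell by 2.80 ± 0.26 in Arg1- cells. The kindlin-2 gene Fermt2 rose by 2.46 ± 0.49 and 2.24 ± 0.49, with its post-TBI mean at the floor. At least 1 probe of Fermt2 was nevertheless well above background on 2 of 3 post-TBI arrays. Parva, which encodes alpha-parvin, rose by 2.34 ± 0.51 and 2.20 ± 0.51. Its post-TBI mean was -4.20, with 1 of 3 post-TBI arrays well above background. The sizes for Fermt2 and Parva are therefore limited by the floor. Src rose by 2.05 ± 0.28 in Arg1+ cells and by 3.03 ± 0.28 in Arg1- cells. Fgr, another kinase of its family, fell by 2.32 ± 0.18 in Arg1+ cells and fell by 1.38 ± 0.18 in Arg1- cells.

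Between the brain groups 2 of these 36 genes rose in Arg1+ cells and 4 fell, where 5.04% of all features were called. The list median was 0.06. Cd9 (1.28 ± 0.26, adjusted p = 0.00885) and Cd151 (0.73 ± 0.15, adjusted p = 0.0116), both tetraspanins that associate with integrins, rose. Cytip, which encodes a cytohesin-interacting protein, fell by 1.22 ± 0.21 (adjusted p = 0.00362). Src fell by 0.98 ± 0.26 (adjusted p = 0.0423) and Fgr fell by 0.93 ± 0.17 (adjusted p = 0.0048). Rassf5, the gene for the Rap1 effector RAPL, fell by 0.77 ± 0.19 (adjusted p = 0.0307). Cd151 and Rassf5 too were named after their values were seen. Between post-TBI and normal monocytes limma called 0 of 36, and 2 had an unadjusted p under 0.05.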

How the data were processed

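RNA of sorted cells was amplified, labelled with Cy3 and hybridised to 1-colour Agilent mouse arrays, per the labels' protocols. The authors deposited Agilent Feature Extraction output (version 10.7.3.1, per the file headers), whose processed signal is a background-corrected intensity, and a log2 table whose normalization is not given in the sources used here beyond limma, named in the submitters' processing notes. From the deposited intensity, each array's values were divided by their 75th percentile, floored at 0.05 and put on a log2 scale. Spots flagged as outliers were set to missing, and spots of a repeated probe were averaged. Probes with at least 2 usable arrays in each group and well above background on at least 3 of 14 arrays were kept (27612 of 41174). Accessions were named through RefSeq (GRCm38.p6, names only), which matched 24844 probes. The brightest kept probe stands for a gene, and unnamed probes stand alone.

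The 4 groups were fitted together over 14 arrays (limma 3.58.1, R 4.3.3, lmFit and eBayes with an intensity trend, two-sided), with Benjamini-Hochberg adjustment over 21972 features in each comparison. The fit was tested on simulated data. Alternatives were normexp on median spot and background intensity, quantile normalization, the deposited log2 table, 2 other filters on dim probes, another floor, the mean of probes, only the 2 groups compared, no trend, slide and replicate number as blocks, each array left out, and, added after seeing the data, flagged spots kept.

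The members and lists were chosen with earlier results of these data known. Named genes are all 10 members, Arg1, up to 4 called genes per list and comparison with the largest log2 difference, and all other integrin subunits called in any comparison. Added to these are the 2 genes most correlated with each member, among named genes without a missing value. Replicate numbers were not used to pair the samples in the main fit. Same-numbered arrays had correlations of deviations of -0.46 to 0.40, and arrays of 1 slide 0.04 to 0.59. Same-numbered arrays mostly lay on different slides, so these correlations cannot decide whether equal numbers share animals.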

Additional observations from a re-analysis of the deposited data

Results flagged for a closer look

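The Itga6 level of Arg1+ replicate 1, 0.90, stood apart from the other 3 Arg1+ arrays, which lay between 1.14 and 1.18. The gap was 0.881 of the group's range, above Dixon's 95% critical value for 4 samples. Of 20 groups of 4 arrays looked at for the members, 1 was marked in this way, and chance marks about 1 in 20.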

How the results depend on the processing

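Among the fits tried, Itga4 and Itgax in Arg1+ against Arg1- cells, Itga4, Itga5, Itgb5 and Itgb7 in both brain groups against post-TBI monocytes, and Itgax and Itga6 in Arg1+ cells against them kept their direction and call throughout. Leaving out each array gave -1.19 to -0.99 for Itga4 (adjusted p = 0.00125 to 0.0226) and -1.56 to -1.21 for Itgax (0.00298 to 0.0146) between the brain groups. With only the 2 groups compared, 4 members were called between the brain groups, Itga6 (0.61, adjusted p = 0.0312) and Itgb7 (adjusted p = 0.0228) in addition. Itga6 in Arg1- cells against post-TBI monocytes passed with normexp (1.06, adjusted p = 0.0153), in the authors' deposited table (1.12, 0.0151), with the stricter filter (1.31, 0.0476), the slide block (1.27, 0.0362) and the replicate block (1.46, 0.0299), and ranged over 0.76 to 2.00 as arrays were left out. Of the other alternatives for single genes, 442 kept direction and call and 16 newly passed, and of the fits without 1 array 535 and 9. No called member value lost its call or direction.

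Whether replicate numbers pair these samples is not known. With the replicate number as a block, 830 features were called between the brain groups and 2 between the blood groups. Itga4 and Itgax between the brain groups were then at -1.06 (adjusted p = 0.0212) and -1.40 (0.0165). Features called between the brain groups, 1108, came to 526 with normexp and to 602 to 1781 as arrays were left out, the lowest without Arg1- replicate 3 and the highest without post-TBI replicate 4, and to 699 without Arg1+ replicate 3. Between the blood groups, 33 came to 15 with normexp, 20 in the authors' deposited table (60% higher, against 72.7%), 0 with only the 2 groups compared (limma, 893 at an unadjusted p under 0.05), and 2 to 64 as arrays were left out, the extremes without post-TBI replicates 3 and 1. Members called there ranged over 0 to 1. Normexp moved the median of all features to 0.14 between the brain groups and 0.15 in Arg1+ against post-TBI cells, against 0.00 and -0.03.

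Signs turned only for values that had missed the threshold in the fit reported above, and among the turned values listed here Itgb2 in Arg1+ against post-TBI cells passed it, with quantile normalization (adjusted p = 0.0434) and in the authors' deposited table (adjusted p = 0.0163). With normexp these were Itgb1 (-0.01) and Itgb2 (-0.03) between the brain groups, Itgav between the blood groups (0.06) and Itgb2 in Arg1+ against post-TBI cells (-0.01). Itgb2 turned with quantile normalization to -0.42 between the brain groups, -0.45 in Arg1+ and -0.03 in Arg1- against post-TBI cells, and in the authors' deposited table to -0.44, -0.47 and -0.04, where Itgam (-0.00) and Itgav (0.06) turned between the blood groups. The mean of probes gave Itgav 0.07 between the blood groups, and -0.00 in Arg1+ and -0.20 in Arg1- against post-TBI cells. Itgax in Arg1- against post-TBI cells was -0.11 with the slide block. Itgam between the blood groups was -0.06 with the replicate block, and -0.07 on its second probe with flagged spots kept. As arrays were left out, values between the blood groups ranged over -0.30 to 0.14 (Itga4), -0.04 to 0.34 (Itga5), -0.07 to 0.14 (Itgam), -0.07 to 0.11 (Itgav) and -0.20 to 0.03 (Itgb1). Those in Arg1- against post-TBI cells ranged over -0.02 to 0.16 (Itgav), -0.13 to 0.23 (Itgax) and -0.06 to 0.18 (Itgb2), and Itgb1 between the brain groups over -0.10 to 0.20. The cause of these changes was not tested. The number of arrays limits all of these values.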
